A study of Homo sapiens with 8 samples.

Results

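The aminoacyl-tRNA synthetases are the enzymes that load each tRNA with its amino acid. The set described here was chosen by gene symbol, by a rule that uses no measured value, although earlier results of these data were known when it was proposed: 19 genes for enzymes of the cytosol, 3 for the non-enzyme scaffold proteins of the multisynthetase complex, and 16 for enzymes of the mitochondria. All 38 were found among the 58787 genes of the count table, and all 38 passed the filter on low counts. Counts per gene came from polyadenylated RNA of IMR32, an established human neuroblastoma line with MYCN amplification, labelled wild type. In 1 group the cells received CR31B, a rocaglate that clamps the RNA helicase eIF4A onto messenger RNA, at the IC50 concentration (no number is given in the labels), and in the other the vehicle, 0.1% DMSO. Both groups were collected at 6 h and have 4 libraries each, described as biological replicates of this single line. Replicate 1 of each group was sequenced paired-end and replicates 2 to 4 single-end.

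Each synthetase recognises 1 amino acid, or in the case of EPRS1 a pair of them, and couples it to the matching tRNAs with energy from ATP. Cytosolic and mitochondrial translation mostly use enzymes from separate nuclear genes, named with a final 1 or 2. GARS1 and KARS1 make the glycine and lysine enzymes of both compartments, and phenylalanine has a cytosolic enzyme of 2 subunit types, FARSA and FARSB. When a tRNA stays uncharged, the kinase GCN2 phosphorylates eIF2, the transcription factor ATF4 is translated, and ATF4 with C/EBP partners binds composite elements whose core is TGATGNAA. Several synthetase genes are textbook targets of ATF4.

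Promoter sequences were therefore searched for that core, and the matches are shown because they fell almost wholly among cytosolic enzymes that rose. RefSeq promoter windows (GRCh38.p14, 250 bases before and 50 after a start site) were at hand for 33 of the 38 members, in 45 windows since some genes have several starts; VARS1, VARS2, YARS1, LARS1 and AARS2 had none. Letters searched were TGATGNAA and its reverse complement TTNCATCA, which covers both strands. Below, each match stands in capitals with 11 bases on either side, written 5′ to 3′ on the strand of the gene.
AARS1, chr16:70289675-70289704, minus strand: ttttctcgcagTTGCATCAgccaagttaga
CARS1, chr11:3057407-3057436, minus strand: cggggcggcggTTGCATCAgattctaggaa
GARS1, chr7:30594834-30594863, plus strand: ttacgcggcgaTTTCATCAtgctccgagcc
IARS1, chr9:92293692-92293721, minus strand: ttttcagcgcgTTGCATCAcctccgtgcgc
MARS1, chr12:57488053-57488082, plus strand: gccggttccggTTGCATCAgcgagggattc
NARS1, chr18:57621804-57621833, minus strand: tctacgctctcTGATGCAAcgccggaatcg
TARS1, chr5:33440956-33440985, plus strand: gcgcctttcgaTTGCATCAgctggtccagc
YARS2, chr12:32756076-32756105, minus strand: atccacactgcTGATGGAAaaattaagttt

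The first 7 belong to cytosolic enzymes and the last to the mitochondrial tyrosine enzyme. In AARS1 the match began 187 bases before the start site and in YARS2 197 bases before it. The other 6 began close to the start: 33 bases before it in GARS1, 13 in IARS1, 4 in MARS1 and 2 in CARS1, and 2 bases after it in TARS1 and 14 in NARS1. AARS1, CARS1, IARS1, MARS1 and TARS1 share the same 8 letters, TTGCATCA, and NARS1 has their reverse complement, TGATGCAA. That exact 8-base string, singled out after the matches were seen, was in the windows of 85 of 11440 tested genes (0.743%) and of 6 of 33 members. For a view of a whole upstream region, the 250 bases before the start site are given for AARS1, the member with the largest rise, and for RARS2, the member with the largest fall, which has no match.
AARS1, chr16:70289507-70289756, minus strand: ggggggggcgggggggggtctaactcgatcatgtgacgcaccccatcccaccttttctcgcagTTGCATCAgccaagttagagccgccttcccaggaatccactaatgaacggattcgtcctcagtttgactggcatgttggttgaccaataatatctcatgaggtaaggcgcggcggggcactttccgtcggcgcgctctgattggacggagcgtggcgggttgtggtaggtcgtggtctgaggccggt
RARS2, chr6:87589988-87590237, minus strand: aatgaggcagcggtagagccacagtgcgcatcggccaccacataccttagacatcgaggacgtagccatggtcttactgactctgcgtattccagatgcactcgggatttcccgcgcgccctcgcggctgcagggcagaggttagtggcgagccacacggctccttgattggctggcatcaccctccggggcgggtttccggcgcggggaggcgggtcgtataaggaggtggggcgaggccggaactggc

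Total counts were 43687828 to 64715535 per library, and levels are given as CPM, counts per 1000000 counts of the library after TMM scaling over all 8 libraries. All 13 neuroblast markers examined were detected and passed the filter, among them MYCN at 2303.8 to 2965.8 CPM. CD3E and GFAP were at 0 in every library, and no leukocyte or epithelial marker exceeded 0.886 CPM. A few markers of other types were measurable: PDGFRA, a fibroblast marker, lay between 27.0 and 69.0 CPM and rose (log2 fold change 1.19). In bulk RNA, fewer cells of a type and less RNA per cell cannot be told apart.

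The libraries of replicate 1 go against their labels when set beside replicates 2 to 4, and this touches every result that follows. Of the 6901 genes whose expression differed between the groups in replicates 2 to 4, 6822 (98.9%) had the opposite sign in replicate 1, and this held for all 25 members among them. With all 8 libraries taken as labelled and layout as a term, edgeR's quasi-likelihood test called 0 of 16518 genes (0.0%) at a Benjamini-Hochberg adjusted p of 0.05. At an unadjusted p under 0.05 there were 205 genes and 0 members, and the smallest adjusted p of a member was 0.707; DESeq2 and limma voom on these 8 libraries also called 0 members. Without the library labelled CR31B replicate 1 the same edgeR fit called 26 members, and without that labelled DMSO replicate 1 it called 25. In each of these fits the layout term takes up the paired-end library left, so the group difference comes from the single-end libraries. These counts therefore do not show what leaving out either library by itself does. No label was changed here: the comparison is given within the 6 single-end libraries, 3 per group, with the libraries labelled replicate 1 beside it. The mean chi-square statistic per gene between 2 libraries gives their distance. The library labelled CR31B replicate 1 was at 9.46 to 17.3 from the single-end DMSO libraries and 94.4 to 144 from the single-end CR31B libraries. That labelled DMSO replicate 1 was at 8.01 to 20.7 from the single-end CR31B libraries and 88.8 to 109 from the single-end DMSO libraries. Layout and the opposite sign fall on the same pair of libraries, and the cause of the opposite sign was not tested.

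Within replicates 2 to 4 most cytosolic enzymes rose and the mitochondrial ones mostly did not. The count was 12 higher, 1 lower and 6 not called among the 19 cytosolic enzymes, and 3 higher, 8 lower and 5 not called among the 16 mitochondrial enzymes. Of the 3 scaffold genes, 1 was lower and 2 were not called. Over all genes, 6901 of 16696 (41.3%) were called by edgeR, 23.8% of those tested as higher and 17.6% as lower, so the 12 of 19 higher calls lie well above the share of higher calls over all genes, while the 25 of 38 members called in either direction include both signs. The median log2 fold change was 0.31 for cytosolic enzymes, −0.17 for mitochondrial enzymes and −0.01 over all genes tested. Changes were moderate, since 3 members passed a fold of 1.5 in either direction. With upper quartile scaling, which moved the median of all genes to −0.10, calls over all genes were 3010 higher and 4509 lower in place of 3968 and 2933. Total count scaling gave 3181 and 4194 and offsets for GC content and length 3438 and 3271, and the 12 cytosolic rises and the 3 mitochondrial ones kept their sign under each of these.

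**Figure D1:**
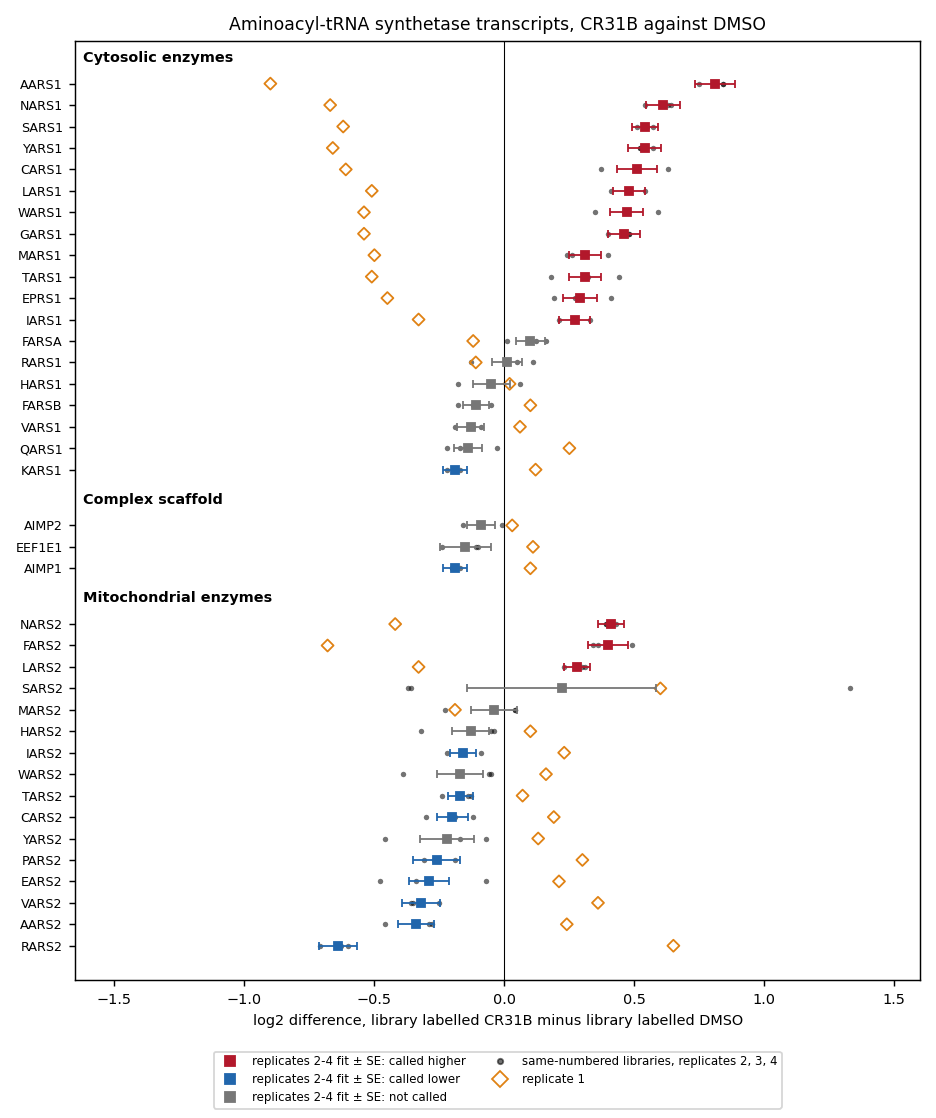
Log2 difference between libraries labelled CR31B and DMSO for each of the 38 members, ordered within class. Squares with bars are the fit of replicates 2 to 4 with its SE, coloured by call; small dots are the same-numbered libraries of replicates 2, 3 and 4; open diamonds are replicate 1, which lie on the other side of 0 from the square for all 25 called members.

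AARS1, the alanine enzyme, had the largest change of all members. Its level was 43.3, 47.1 and 52.9 CPM in DMSO replicates 2, 3 and 4, and 77.5, 84.3 and 89.2 CPM in CR31B replicates 2, 3 and 4. The library labelled DMSO replicate 1 held 94.0 CPM and the library labelled CR31B replicate 1 held 50.5 CPM. The single-end groups did not overlap, the first of these replicate 1 values lay above every single-end library, and the second lay inside the range of the DMSO libraries. By edgeR the fold change was 1.75 (log2 0.81, SE 0.0786, adjusted p 2.45e-05; 47.8 ± 4.83 against 83.7 ± 5.91 CPM, SD, n = 3).

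NARS1, which charges the asparagine tRNA, came next among the cytosolic enzymes. DMSO replicates 2 to 4 held 180, 202 and 206 CPM and CR31B replicates 2 to 4 held 282, 294 and 319 CPM, with no overlap. In replicate 1 the library labelled DMSO was at 340 CPM and that labelled CR31B at 214 CPM. The log2 fold change was 0.61 (SE 0.0664, edgeR adjusted p 5.32e-05). SARS1, the serine enzyme, was steadier between replicates: 246, 246 and 257 CPM in DMSO and 350, 365 and 376 CPM in CR31B (log2 0.54, SE 0.0502, edgeR adjusted p 1.75e-05). Replicate 1 gave 386 CPM under the DMSO label and 250 CPM under the CR31B label, the latter among the single-end DMSO values. YARS1, the tyrosine enzyme, stood at 186, 179 and 204 CPM in DMSO and at 268, 266 and 293 CPM in CR31B, again without overlap. Its log2 fold change equalled that of SARS1 to 2 decimals, at 0.54 (SE 0.063, edgeR adjusted p 8.03e-05), and replicate 1 read 300 CPM as DMSO and 190 CPM as CR31B.

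CARS1, for cysteine, was expressed at a lower level, with 38.9, 40.5 and 44.1 CPM in DMSO and 60.3, 52.3 and 62.9 CPM in CR31B; its log2 fold change was 0.51 (SE 0.0766, edgeR adjusted p 0.000446). The replicate 1 libraries were at 67.3 CPM (DMSO) and 43.9 CPM (CR31B). Among the enzymes that sit in the multisynthetase complex, LARS1, the leucine enzyme that also acts as a leucine sensor for mTORC1, changed most. It rose from 170, 183 and 192 CPM to 246, 243 and 269 CPM in replicates 2 to 4 (log2 0.48, SE 0.0612, edgeR adjusted p 0.000152), and replicate 1 held 284 CPM as DMSO and 200 CPM as CR31B.

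The tryptophan enzyme WARS1, also known as an interferon-induced gene, was at 105, 110 and 105 CPM in DMSO replicates 2 to 4. In CR31B replicates 2 to 4 it was at 135, 151 and 158 CPM, so the groups did not overlap (log2 0.47, SE 0.0626, edgeR adjusted p 0.000198). Replicate 1 held 154 CPM under DMSO and 106 CPM under CR31B, each inside the single-end range of the other label. GARS1, whose product serves cytosol and mitochondria, was at 231, 232 and 251 CPM in DMSO and 323, 307 and 349 CPM in CR31B (log2 0.46, SE 0.0607, edgeR adjusted p 0.000198). Its replicate 1 values, 341 CPM as DMSO and 234 CPM as CR31B, were likewise each inside the single-end range of the other label. The 4 remaining rises were MARS1 for methionine and TARS1 for threonine (log2 0.31 each), the bifunctional glutamate and proline enzyme EPRS1 (0.29) and IARS1 for isoleucine (0.27). In each of the 12 that rose, the single-end groups did not overlap and all of pairs 2, 3 and 4 pointed the same way. The edgeR call ended for EPRS1 without replicate 4 of both groups (adjusted p 0.0678) and for IARS1 with offsets for GC content and length (log2 0.13, adjusted p 0.113). MARS1 shares 12.4% of its exonic bases with genes on the opposite strand, among them DDIT3, and whether counting used strand is not given in the sources used here; DDIT3 itself was at 3.62 to 6.59 CPM against 158 to 227 CPM for MARS1. WARS1 shares 10.6% in the same way, and GARS1 2.4% with its divergent transcript.

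The lysine enzyme KARS1 was the lone cytosolic enzyme called lower, from 118 to 120 CPM in DMSO to 102 to 106 CPM in CR31B (log2 −0.19, SE 0.0455, edgeR adjusted p 0.00685); without replicate 4 of both groups the adjusted p was 0.0723. So of the pair of genes that serve both compartments, GARS1 rose and KARS1 fell. QARS1 for glutamine (log2 −0.14), VARS1 for valine (−0.13) and FARSB (−0.11) were not called, and FARSA, the other phenylalanine subunit, had a log2 fold change of 0.10. With a replicate block, which uses that same-numbered libraries deviate together, edgeR's adjusted p was 0.0262 for QARS1, 0.016 for VARS1 and 0.0341 for FARSB, so that 4 cytosolic enzymes were called lower in place of 1.

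RARS1, the arginine enzyme, was the member with the smallest change: 94.7, 103 and 101 CPM in DMSO and 102, 94.1 and 104 CPM in CR31B, with 105 and 97.8 CPM in the replicate 1 libraries labelled DMSO and CR31B. Its fitted log2 value was 0.01 (SE 0.0564, edgeR adjusted p 0.905), and its sign turned under 13 of 19 alternatives. HARS1, the histidine enzyme, read 75.1, 77.6 and 83.7 CPM in DMSO and 78.2, 68.3 and 81.0 CPM in CR31B, and 75.2 and 76.3 CPM in replicate 1 (log2 −0.05, SE 0.0706, edgeR adjusted p 0.581). For RARS1 and HARS1 the groups overlapped, and at this spread a small difference could not be seen.

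**Figure D2:**
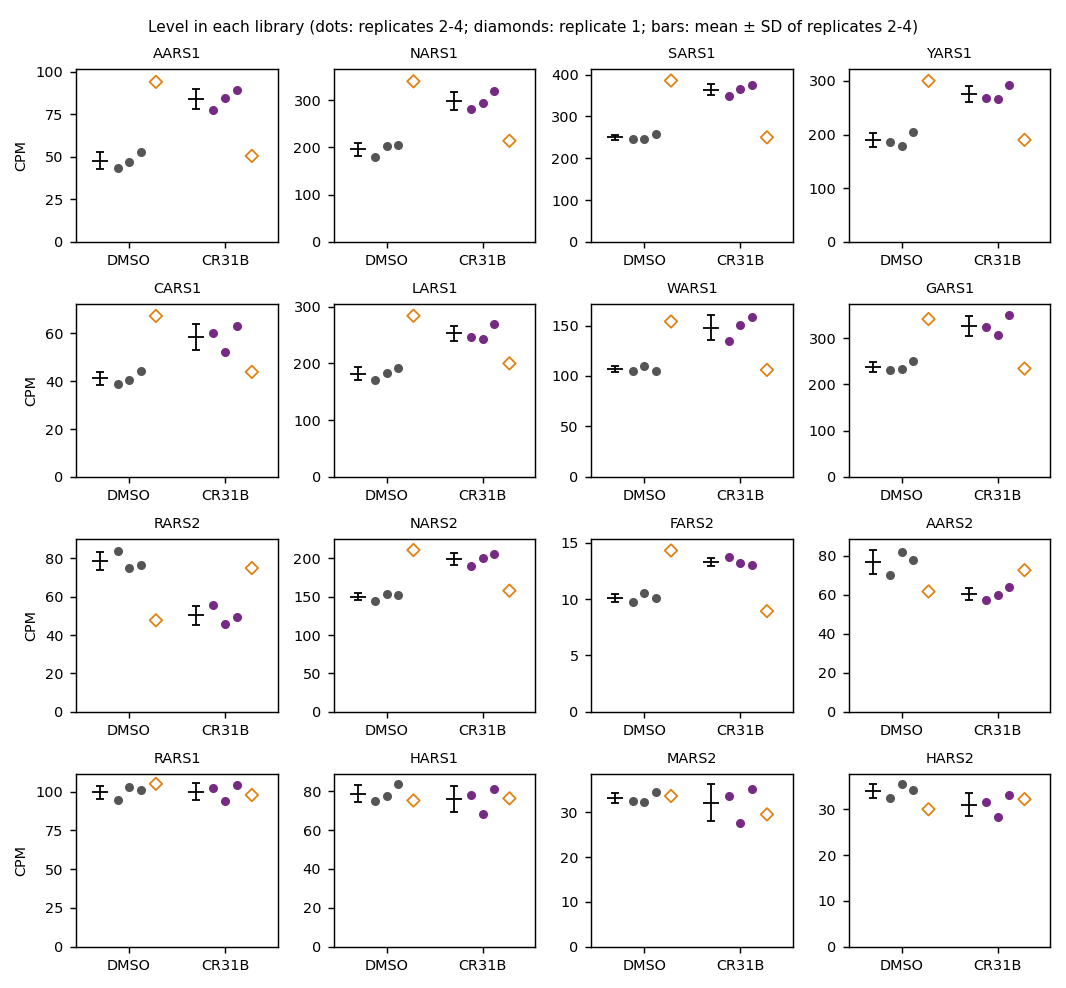
CPM (TMM-scaled) in every library for the 16 members whose values are given in full, each on its own linear axis from 0. Dots are replicates 2 to 4, bars their mean ± SD, and open diamonds replicate 1; for AARS1 the diamonds are at 94.0 CPM under DMSO and 50.5 CPM under CR31B, the reverse order of the dots, and for RARS1 and HARS1 all 8 libraries lie close together.

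Enzymes inside the multisynthetase complex, a cytosolic assembly that holds several synthetases together, did not move as a block. Of the 7 genes that encode its enzymes 4 rose (LARS1, MARS1, EPRS1 and IARS1), 1 fell (KARS1) and 2 were not called (QARS1 and RARS1), with a median log2 fold change of 0.27. Outside the complex 8 of 12 rose and 0 were called lower, with a median of 0.46. Its scaffold genes were at or below 0 on this scale. AIMP1, which also gives rise to a secreted cytokine, was at 79.3 to 81.6 CPM in DMSO and 69.0 to 71.0 CPM in CR31B (log2 −0.19, SE 0.0459, edgeR adjusted p 0.00721; 0.0962 without replicate 4). EEF1E1 (log2 −0.15) and AIMP2 (−0.09) were not called, and AIMP2 turned to 0.026 with offsets for GC content and length. All 3 share over 10% of exonic bases with a neighbour: AIMP1 11.6% with TBCK and AIMP2 28.9% with EIF2AK1, both on the opposite strand, and EEF1E1 18.7% with a read-through gene on its own strand.

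Among mitochondrial enzymes RARS2, for arginine, changed most, in the downward direction. DMSO replicates 2 to 4 held 83.7, 75.1 and 76.7 CPM and CR31B replicates 2 to 4 held 55.4, 45.8 and 49.4 CPM. The replicate 1 libraries were at 47.7 CPM (DMSO) and 74.9 CPM (CR31B). The groups were apart in replicates 2 to 4, and by edgeR the level fell by 0.64 on the log2 scale (SE 0.074, adjusted p 7.43e-05). AARS2, the mitochondrial alanine enzyme, fell from 69.8, 82.0 and 77.9 CPM to 57.4, 59.6 and 63.9 CPM (log2 −0.34, SE 0.0683, edgeR adjusted p 0.00245). Its replicate 1 libraries held 61.6 CPM as DMSO and 72.5 CPM as CR31B, each within the single-end range of the other label.

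NARS2 and FARS2 went the other way. NARS2, the mitochondrial asparagine enzyme, rose from 145, 153 and 152 CPM to 190, 201 and 206 CPM (log2 0.41, SE 0.0511, edgeR adjusted p 0.000134), with 211 CPM in the library labelled DMSO replicate 1 and 158 CPM in that labelled CR31B replicate 1. FARS2, the single-chain mitochondrial phenylalanine enzyme, rose from 9.72, 10.5 and 10.1 CPM to 13.7, 13.2 and 13.0 CPM (log2 0.40, SE 0.0766, edgeR adjusted p 0.00198); replicate 1 held 14.3 and 8.93 CPM under DMSO and CR31B. LARS2, for leucine, was the third that rose, at log2 0.28.

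The other 6 called lower had log2 fold changes of −0.32 (VARS2, valine), −0.29 (EARS2, glutamate), −0.26 (PARS2, proline), −0.20 (CARS2, cysteine), −0.17 (TARS2, threonine) and −0.16 (IARS2, isoleucine). In each the single-end groups were apart, and replicate 1 had the opposite sign. These were the calls closest to the threshold: EARS2, PARS2, CARS2, TARS2 and IARS2 each lost the call when some single libraries or pairs were left out, so that the count of 8 mitochondrial falls became 3 without replicate 3 and 3 without replicate 4 of both groups, and 4 without replicate 2 of both groups or without DMSO replicate 4. It was 5 without CR31B replicate 3 or without DMSO replicate 3. With offsets for GC content and length the edgeR adjusted p was 0.173 for PARS2 and 0.0835 for TARS2. VARS2 shares 22% of its exonic bases with GTF2H4 on the same strand.

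Of the 5 mitochondrial enzymes not called, YARS2 for tyrosine (log2 −0.22) had an edgeR adjusted p of 0.111, or 0.0195 with the replicate block, and WARS2 for tryptophan had a log2 value of −0.17. HARS2, for histidine, read 32.4, 35.4 and 34.2 CPM in DMSO and 31.6, 28.3 and 33.1 CPM in CR31B, with 30.0 and 32.2 CPM in replicate 1 (log2 −0.13, SE 0.0707, edgeR adjusted p 0.158). MARS2, for methionine, read 32.5, 32.3 and 34.4 CPM in DMSO and 33.5, 27.5 and 35.2 CPM in CR31B, with 33.6 and 29.5 CPM in replicate 1 (log2 −0.04, SE 0.0872, edgeR adjusted p 0.725). In HARS2 and MARS2 the groups overlapped, and CR31B replicate 3 was the lowest of the single-end libraries. HARS1 and HARS2 lie head to head on chromosome 5, at chr5:140673904-140691862 on the minus strand and chr5:140691426-140699318 on the plus strand in GENCODE 29 (GRCh38), and neither was called. SARS2, the mitochondrial serine enzyme, was listed at 0.178 to 0.477 CPM in all 8 libraries; it shares 46.2% of its exonic bases with a read-through gene on the same strand, and the part of this overlap in the low values was not tested.

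Levels per length differed between the classes in the vehicle group. In the single-end DMSO libraries the median was 29.3 CPM per kb of exon for cytosolic enzymes and 9.91 CPM per kb for mitochondrial enzymes. The ranges overlapped: IARS2 had the highest level of all 38, at 69.1 CPM per kb, ahead of SARS1 at 65.1 CPM per kb, and CARS1 was the lowest cytosolic enzyme at 4.10 CPM per kb. Exon length here is the union of all annotated exons, which understates genes with many unused exons.

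Enzymes for the same amino acid were then set side by side. For 13 amino acids each compartment has an enzyme from a single gene of its own, and in 13 of 13 the cytosolic fold change was above the mitochondrial one in the fit of replicates 2 to 4. Both genes of a pair are read from the same libraries, and the 13 differences are a description of this set. In 12 of the 13 the order held in each of pairs 2, 3 and 4; the exception was serine, where SARS2 was barely detected. Replicate 1 had the opposite order in all 13. By call, 4 amino acids had a cytosolic rise with a mitochondrial fall (alanine, cysteine, threonine and isoleucine), and 4 had a cytosolic rise with no call in mitochondria (tyrosine, tryptophan, methionine and serine). For asparagine and leucine both genes rose, for arginine and valine the mitochondrial gene fell and the cytosolic gene was not called, and for histidine neither gene was called.

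Alanine had the widest gap, 1.15 on the log2 scale. The log2 ratio of AARS1 to AARS2 CPM was −0.69, −0.80 and −0.56 in DMSO replicates 2, 3 and 4 and 0.43, 0.50 and 0.48 in CR31B replicates 2, 3 and 4, so that AARS1 reads passed from fewer to more than AARS2 reads. The libraries labelled replicate 1 had 0.61 as DMSO and −0.52 as CR31B. The next gaps were 0.76 for tyrosine, 0.71 for cysteine, 0.65 for arginine and 0.64 for tryptophan. The narrowest was histidine, at 0.08. EPRS1, which charges glutamate and proline in the cytosol, was above EARS2 by 0.59 and above PARS2 by 0.55. Phenylalanine ran the other way: FARSA and FARSB lay below FARS2 by 0.30 and 0.51.

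**Figure D3:**
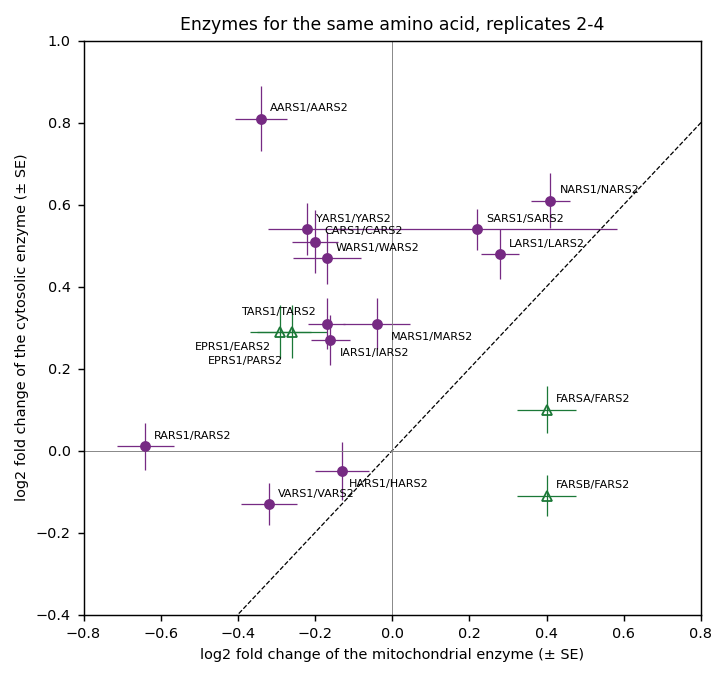
Log2 fold change of the cytosolic enzyme (vertical axis, ± SE) against that of the mitochondrial enzyme (horizontal axis, ± SE) for the same amino acid, replicates 2 to 4. Filled circles are the 13 amino acids with a gene in each compartment, all above the dashed line of equal change; open triangles are the subunits FARSA and FARSB, below the line, and the bifunctional EPRS1.

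The gap between the class medians can be followed through the same-numbered libraries. The cytosolic median minus the mitochondrial median of log2 differences was 0.34 in pair 2, 0.53 in pair 3 and 0.53 in pair 4, and −0.67 in pair 1. Its SD over pairs 2 to 4 was 0.11. In pair 1 the cytosolic median was −0.50 and the mitochondrial median 0.17. The difference between layouts was tested per gene as an interaction in edgeR: 7027 of 16518 genes (42.5%) passed, and so did 25 members, each with a sign in replicate 1 opposite to that in replicates 2 to 4.

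The promoter matches can now be read beside these values. Of the 10 cytosolic enzymes that rose and have a RefSeq window, 7 hold the TGATGNAA core (AARS1, NARS1, CARS1, GARS1, MARS1, TARS1 and IARS1), and SARS1, WARS1 and EPRS1 do not. Of the 6 other cytosolic enzymes with a window 0 hold it, of the 3 scaffold genes 0, and of the 8 members called lower that have a window 0. Of 14 mitochondrial enzymes with a window 1 holds it, YARS2, and the risers NARS2, FARS2 and LARS2 do not. Over all tested genes with a window, 310 of 11440 (2.71%) hold it, with 3.51% of those called higher, 1.81% of those called lower and 2.63% of those not called; over the whole promoter table the share was 4.46%. The windows cover a short stretch around annotated starts, and the match is a description of letters.

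Other genes of aminoacylation and its surroundings came from lists written by function, also with earlier results of these data known. Over all genes tested, 23.8% were called higher and 17.6% lower. Of 14 further aminoacylation genes 3 rose and 2 fell, which is not read as a result about this list. The falls were 5 with the replicate block and 7 with offsets for GC content and length. Among those that rose was SEPSECS, which finishes selenocysteine on its tRNA, by 0.27 on the log2 scale, a call that ended with the offsets (log2 0.12, edgeR adjusted p 0.254). GATC and QRSL1 fell by 0.40 and 0.33 on the log2 scale. They are subunits of the mitochondrial amidotransferase that turns glutamate on the glutamine tRNA into glutamine. This enzyme acts on the product of EARS2, which also fell. GATB, another of its subunits, was not called (log2 −0.10, edgeR adjusted p 0.237), but was called lower with the offsets (−0.21, 0.0246). The median of the list was −0.13.

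Delivery factors carry charged tRNA to the ribosome. Of 6 tested, EEF1A2, the neuronal and muscle form of the elongation factor, rose by 0.21, and TUFM, its mitochondrial equivalent, and EEF1B2, a nucleotide exchange subunit, fell by 0.22 and 0.17 on the log2 scale. With offsets for GC content and length the latter calls ended: TUFM had a log2 value of −0.11 (edgeR adjusted p 0.142) and EEF1B2 of −0.09 (0.253). EEF1G is listed at 0 in all 8 libraries. Shared exonic bases were computed for the members only, and the part of any overlap in this value was not tested. In the list of tRNA processing and export, 7 of 24 rose and 3 fell (median 0.11): RPP14 and RPP38, subunits of RNase P, rose by 0.79 and 0.38 and CLP1, a kinase of tRNA splicing, by 0.54, whereas the RNase P subunits POP5 and RPP30 and HSD17B10, part of mitochondrial RNase P, had log2 fold changes of −0.33, −0.25 and −0.24. HSD17B10 was at −0.06 with the offsets (edgeR adjusted p 0.442), which ended its call. Over all genes tested, 23.8% were called higher and 17.6% lower. The counts of the delivery and tRNA processing lists are therefore not read as a result about them. RNA polymerase III, which transcribes tRNA genes, had 7 of 22 higher and 6 lower (median 0.07). Its subunit POLR3C stood apart, from 89.0 to 94.1 CPM in DMSO up to 188 to 216 CPM in CR31B (log2 1.14); GTF3C4 (0.49) and POLR3B (0.43) rose too, and BRF2 (−0.50), GTF3A (−0.40) and GTF3C6 (−0.22) fell.

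The amino acid response list, with ATF4 and genes it is known to act on, moved most. Of 22 tested 18 rose and 1 fell, with a median log2 fold change of 0.85; the falls were 2 with the replicate block and 3 with the offsets. CHAC1, a glutathione-degrading enzyme, went from 3.14, 3.26 and 2.67 CPM in DMSO to 21.8, 24.5 and 26.2 CPM in CR31B (log2 2.99, SE 0.107, edgeR adjusted p 4.34e-07), with 26.3 and 3.47 CPM in the libraries labelled DMSO and CR31B replicate 1. SESN2, a leucine sensor upstream of mTORC1, rose by 1.76 and the transcription factor CEBPB by 1.3. PPP1R15A, the phosphatase subunit that reverses eIF2 phosphorylation, fell by 0.47 on the log2 scale. Set beside this list, the synthetase changes were smaller: no member exceeded the 0.81 of AARS1.

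**Figure D4:**
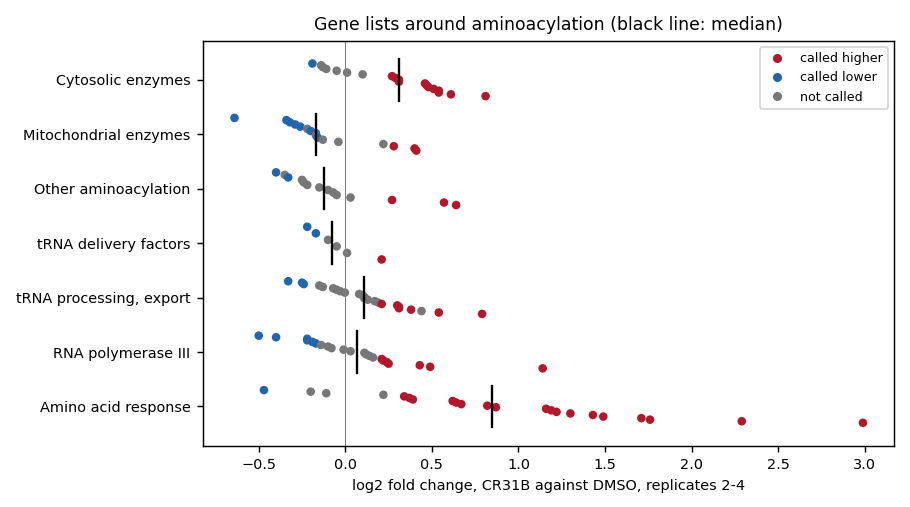
Log2 fold change of each tested gene in replicates 2 to 4, by list, coloured by call, with the list median as a black line. The cytosolic enzymes (median 0.31) lie to the right of the mitochondrial enzymes (−0.17), and the amino acid response list (0.85) extends to 2.99.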

How the data were processed

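Polyadenylated RNA of 8 IMR32 libraries was counted per Ensembl gene, and the authors deposited raw counts without normalisation. STAR 2.7.2b, FastQC 0.11.7, edgeR 3.36.0, limma 3.50.3 and the GRCh38 build are named in the submitters' processing notes, with no role; the counting tool, strand setting and annotation are not given in the sources used here. Per the labels' protocols, 250 ng of RNA was taken as input, with 15 PCR cycles and 75 sequencing cycles, and the kit named is a small RNA kit. No molecular identifiers are described, so depth covers counting error only. Columns were assigned by name; that of CR31B replicate 4 has a truncated cell line name and fits no other library.

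Gene symbols and exons came from GENCODE 29 by identifier (58515 of 58787 matched). The test was edgeR 4.0.16 under R 4.3.3 (filterByExpr, TMM, glmQLFit and glmQLFTest, two-sided, Benjamini-Hochberg over all genes tested, threshold 0.05). The comparison used 3 single-end libraries per group; further fits took all 8 libraries with layout as a term, and the treatment by layout interaction. A log2 difference between same-numbered libraries uses log2 CPM with a prior count of 1, and an SE is the log2 fold change divided by the root of the F statistic. Alternatives were the replicate block, GC and length offsets, scaling by RLE, by the upper quartile or by total counts, no filter, a CPM filter, limma 3.58.1 voom, DESeq2 1.42.0, leaving out libraries, and, chosen after seeing the data, leaving out members with over 10% shared exonic bases.

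Same-numbered libraries were taken as pairs because their deviations from the group means correlated, with coefficients of 0.208 (replicate 2), 0.388 (replicate 3) and 0.157 (replicate 4). No pair of libraries agreed within sampling noise. Tested on simulated data (16489 genes, 200 of them changed), the single-end comparison recovered 100% of those changed by 1 and 93% of those changed by 0.5 on the log2 scale, with 6 false calls among 199. The changed genes were all well counted, and the simulation had 1 dispersion for all genes and no replicate effect. In the data 41.3% of genes were called, and many members changed by less than 0.5. These rates therefore check the method and do not describe the calls reported here. The members and lists were chosen with earlier results of these data known. Values in every library are given for the 8 cytosolic or scaffold and 4 mitochondrial called members with the largest change, the 2 with the smallest change in each class, and the amino acid with the widest gap; other lists are named by up to 3 genes per direction with the smallest adjusted p, except that some genes this rule names are not reported here by themselves and stay in the counts. Protein sequences were not used here.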

Additional observations from a re-analysis of the deposited data

Results flagged for a closer look

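In 6 of the 36 group values tested over 4 libraries, 1 library stood far from the other 3, and in all 6 it was replicate 1. For independent values chance flags about 1 in 20, or 1.8 of 36, but these 36 share the same 8 libraries. Most of the members were also picked for large called changes in replicates 2 to 4. That pick favours a distant replicate 1, so the count of 6 is not read against 1.8. The gap to the nearest library as a share of the range was 0.841 for NARS1, 0.917 for SARS1, 0.904 for WARS1, 0.874 for NARS2 and 0.841 for FARS2 among the DMSO libraries, and 0.855 for FARS2 among the CR31B libraries.

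The difference between CR31B and DMSO itself differed between the paired-end and the single-end libraries for 12 of the 16 members printed in full, by edgeR's test of the interaction. These 12 were printed because they had the largest called changes in replicates 2 to 4. Those changes enter the interaction, so the count follows from how the members were picked. Over all genes tested 42.5% passed. On the log2 scale, the replicate 1 difference minus that of replicates 2 to 4 was −1.71 for AARS1, −1.27 for NARS1, −1.20 for YARS1, −1.17 for SARS1, −1.12 for CARS1, −1.01 for WARS1, −1.0 for GARS1 and −0.98 for LARS1. Among mitochondrial enzymes it was −1.08 for FARS2, −0.83 for NARS2, 0.58 for AARS2 and 1.3 for RARS2. The paired-end layout holds 1 library per group, so the spread comes from the single-end libraries.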

How the results depend on the processing

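Over 19 alternatives to the single-end comparison, 720 member values were recomputed: 629 kept direction and side of the threshold, 37 lost the call, 33 gained it and 21 changed sign. None of the 25 called members changed sign, and 16 passed under every alternative, among them 10 of the 12 cytosolic rises; the exceptions were EPRS1 without replicate 4 (log2 0.23, edgeR adjusted p 0.0678) and IARS1 with GC and length offsets (0.13, 0.113). Of the 10 lower calls 3 passed throughout. With the replicate block, 4 more members passed and 0 were lost, and calls over all genes were 8540. The 1 cytosolic fall became 4 with the block, upper quartile scaling, total count scaling or a minimum of 1 CPM in 3 libraries, 2 with RLE scaling, DESeq2 or the offsets, and 3 with block and offsets together; leaving out libraries gave 0 to 2, and 3 to 7 mitochondrial falls. Leaving out members with shared exons kept 21 calls. With all 8 libraries as labelled, leaving out 1 gave 0 to 26 member calls: 26 without CR31B replicate 1, 25 without DMSO replicate 1 and 0 otherwise. In the fits without a replicate 1 library the layout term takes up the paired-end library left, so their calls come from the single-end libraries. Without replicate 4 of both groups, genes called fell from 6901 to 3981. Changes of sign were limited to members not called. RARS1 had −0.0021 with RLE scaling or DESeq2, −0.087 with upper quartile and −0.07 with total count scaling, −0.002 without a filter, −0.027 with the CPM minimum, −0.079 with offsets, with or without the block, and −0.037 to 0.065 with libraries left out. AIMP2 had 0.026 with offsets and 0.024 with block and offsets. With libraries left out, HARS1 ranged from −0.11 to 0.019, MARS2 from −0.11 to 0.059 and SARS2 from −0.39 to 0.54. SARS2 had no test value with the CPM minimum or in DESeq2. The cause of these changes was not tested.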

Other observations

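ASNS, which makes asparagine and belongs to the amino acid response list, was singled out after its values were seen. It was listed at 0.210 to 0.296 CPM in DMSO replicates 2 to 4 and 0.496 to 0.880 CPM in CR31B replicates 2 to 4 (log2 1.49, SE 0.299, edgeR adjusted p 0.0026), so it stayed under 1 CPM in all 8 libraries. NARS1, the enzyme that uses asparagine, was at 180 to 340 CPM. Shared exonic bases were not computed for ASNS, and the part of any overlap in its low values was not tested. The levels of ASNS and NARS1 are therefore not compared.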
